A study of Homo sapiens with 2 samples.

Results

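In MDA-MB-231 cells, an established line from a human breast cancer of the triple-negative type, JARID2 peaks at the RUNX and Ikaros family genes comprised 2 strong promoter peaks, at IKZF3 and RUNX1, and 22 weak ones. The genes examined were RUNX1, RUNX2, RUNX3, CBFB and IKZF1 to IKZF5, and their peaks were those whose deposited gene symbol was one of these 9. That gave 24 of the 67071 listed peaks, named for 6 of the 9 genes. The set was chosen with the heights of the IKZF3 and RUNX1 promoter peaks known, so those heights are a description and carry no test. The assay, ChIP-seq, sequences the DNA recovered by chromatin immunoprecipitation, and untreated cells were used with a polyclonal antibody against JARID2, in 1 library, and 1 input library of DNA without an antibody was sequenced beside it. Only the peak list of the JARID2 library was analysed here. No group had a further library, so the values below have no replicate to be checked against. Expression is not in the list, so neither the identity of the line nor the activity of these genes was checked.

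RUNX proteins bind DNA through the Runt domain and pair with CBFB, a partner subunit that does not bind DNA itself. RUNX1 is needed to make blood stem cells, RUNX2 to make bone and RUNX3 in T cells and sensory neurons. Ikaros proteins are zinc finger transcription factors that shape lymphoid cells and recruit chromatin remodelling and deacetylase complexes. JARID2 assists PRC2, the Polycomb complex that methylates histone H3 and that is drawn to promoters rich in CG dinucleotides.

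Promoter sequence from RefSeq shows how unlike the starts of these genes are. The table (GRCh38.p14) gave 15 windows of 300 bases, 250 before and 50 after a start, for 7 of the 9 genes, and none was matched for CBFB or IKZF3. They held 0 to 40 CG dinucleotides, against a median of 14 over 35114 windows. The RUNX1 window held 40, more than 92.4% of all windows, the more CG-rich RUNX2 window 39 and the more CG-rich RUNX3 window 38. The first pair below shows what such CG-rich starts of RUNX genes look like. Each is the 250 bases before the start, on the minus strand of GRCh38.p14, with CG in capitals, 32 in RUNX1 (chr21:34888700-34888949) and 33 in RUNX3 (chr1:24930277-24930526).
RUNX1: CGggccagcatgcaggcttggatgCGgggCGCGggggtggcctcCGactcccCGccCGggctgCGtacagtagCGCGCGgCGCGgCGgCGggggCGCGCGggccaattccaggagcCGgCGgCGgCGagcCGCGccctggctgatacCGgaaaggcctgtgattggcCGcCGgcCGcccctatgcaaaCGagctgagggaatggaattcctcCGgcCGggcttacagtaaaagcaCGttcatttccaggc
RUNX3: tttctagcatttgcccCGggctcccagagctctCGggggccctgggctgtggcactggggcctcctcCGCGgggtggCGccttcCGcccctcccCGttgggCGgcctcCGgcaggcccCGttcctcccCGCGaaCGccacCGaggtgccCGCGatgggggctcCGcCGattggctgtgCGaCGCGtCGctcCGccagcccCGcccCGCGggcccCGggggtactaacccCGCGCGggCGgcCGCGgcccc
Within GRCh38.p14 the start of this RUNX1 window lay 160.6 kb inside the far end of the gene, which is 261502 bp long there. The strong RUNX1 peak, on hg19, lay at the far end of a transcript of 261498 bp, so the window is of an inner start.

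RUNX2 and RUNX3 share a paired RUNX site near their other start. The RUNX core was searched as TGTGGT and TGCGGT on both strands. TGTGGT occurred in 13.1% of all windows and TGCGGT in 7.29%. A pair of TGTGGT cores in the same direction with 2 bases between them, a pattern noticed in these windows and then counted, occurred in 4 of 35114 windows. RUNX2 and RUNX3 held 2 of the 4, and OR52N2 and LOC105369321 held the others. OR52N2 had the same 2 bases between the cores as RUNX2 and RUNX3, so the pair is not particular to RUNX genes. The pair lay before the start in RUNX3 and after it in RUNX2. The stretches of 30 bases below run 5′ to 3′ along the gene, from chr6:45328338-45328367 (plus strand) and chr1:24965120-24965149 (minus strand) of GRCh38.p14, with cores on either strand in capitals.
RUNX2: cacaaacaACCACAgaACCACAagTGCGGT
RUNX3: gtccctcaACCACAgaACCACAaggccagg
The CG-rich windows of RUNX1, RUNX2 and RUNX3 held neither core, and single windows of IKZF1, IKZF2 and IKZF5 held TGTGGT. The Ikaros core TGGGAA, found in 24% of all windows, occurred in a window of IKZF1 and in the RUNX3 window with the paired site. The E2F word TTCCCGC, found in 6.55% of windows, occurred in both overlapping IKZF5 windows, and the E-box CACGTG, in 7.26% of windows, occurred in none of the 15. A match is only a match of letters, and no peak was placed on these windows because the peaks are on hg19.

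The plot of fold enrichment by gene shows a pair of high peaks over a band of low ones. Fold enrichment is the authors' linear ratio of ChIP signal to the background their peak caller estimated, and the false discovery rate (FDR) is the caller's own percent. Of the 24 peaks, 2 had an FDR of at most 5%, in a list where 1.24% of all peaks did. These were the promoter peaks of IKZF3 and RUNX1, and this count repeats what the set was chosen on. An FDR above 40% belonged to 19 of the 24 (79.2%), where 70.3% of all peaks had one. The median fold enrichment of the 24 peaks was 5.93, against 5.95 over all peaks, and the median tag count was 12 in each.

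**Figure D1:**
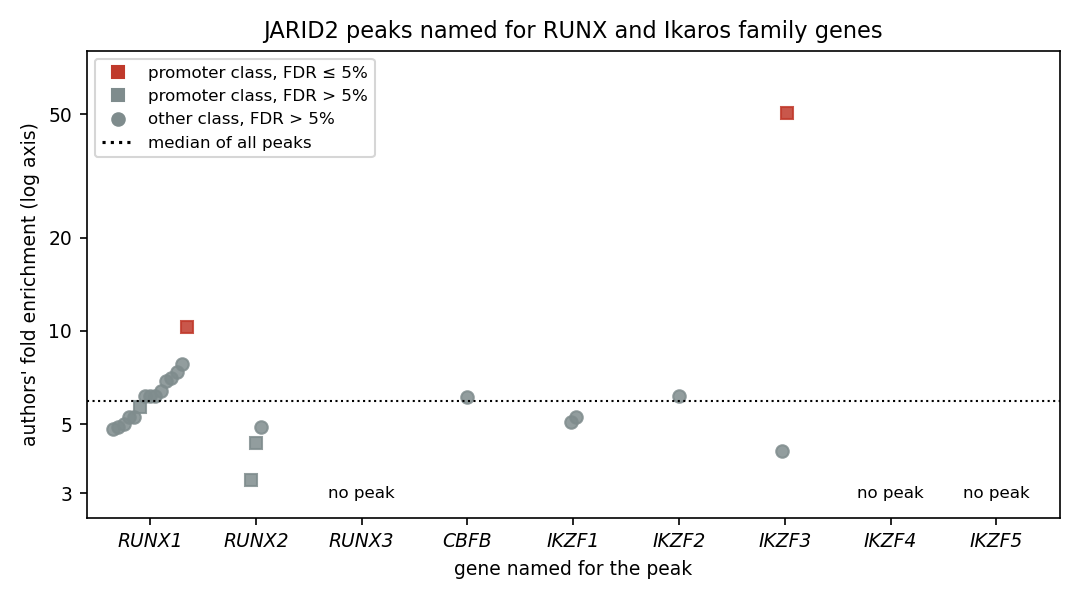
Fold enrichment (authors' ratio, log axis) of each peak by the gene it is named for, with squares for promoter-class peaks, circles for other classes and red for an FDR of at most 5%. IKZF3 at 50.3 and RUNX1 at 10.31 stand above the other 22 peaks, which reach 7.80 at most, and RUNX3, IKZF4 and IKZF5 have no peak.

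IKZF3, which encodes the lymphoid regulator Aiolos (ENSG00000161405), carried the highest peak of the set. The peak lay on chromosome 17, hg19 38019961 to 38020939, and overlapped the start of transcript ENST00000346872. It was 979 bp wide and held 144 tags (95% exact Poisson interval 121.44 to 169.53, counting error only). Its fold enrichment was 50.3 and its FDR 0. Its summit was 19 bp upstream of the listed start. Of all 67071 peaks, 16 had a fold enrichment this high or higher, as did 8 of the 13764 promoter-class peaks. The peak held 29.2% of the tags in all 24 peaks.

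The other IKZF3 peak was weak although it lay close by. It was on 38016908 to 38017955, separated from the promoter peak by 2006 bp, with its summit 2805 bp inside transcript ENST00000346243. It held 28 tags, a number that 4.9% of all peaks reached, but had a fold enrichment of 4.09 and an FDR of 47.07%. The deposited annotation called it intron 7 of 7, although it lay near the start of a gene on the minus strand, so intron and exon numbers are not given below. In the 99.2 kb spanned by the listed IKZF3 transcripts there were also 2 peaks named for AC079199.2, at 5.02 and 5.71, each with an FDR above 40%. IKZF3 was the third protein-coding gene by height among the 4474 whose transcription start site (TSS) had a peak no more than 1 kb away. JARID2 (137.44) and the demethylase gene KDM1A (77.61) stood just above it, and the ubiquitin ligase gene RNF130 (44.63) and the glutaminase gene GLS2 (43.27) just below. This likeness is of height alone, over 1 library.

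RUNX1, the blood stem cell factor (ENSG00000159216), had 15 peaks, of which 1 was strong. The strong peak, on chromosome 21, hg19 36421246 to 36421991, overlapped the start of ENST00000437180, a transcript 261498 bp long. It held 34 tags (exact Poisson interval 23.55 to 47.51), with a fold enrichment of 10.31 and an FDR of 0.51%. Its summit was 128 bp upstream of that start. A fold enrichment this high was reached by 0.945% of all peaks and 2.74% of promoter-class peaks. The IKZF3 peak held 4.24 times as many tags and was wider, at 979 against 746 bp, which describes 1 library and was not tested. RUNX1 was number 265 of the 4474 genes, tied at 10.31 with its neighbours SREBF2, ATP2A1, EIF2D and GALK2. Their FDRs ran from 0.36% for SREBF2, which encodes a regulator of cholesterol synthesis, to 10.41% for GALK2.

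RUNX1 is read from a distal and a proximal promoter, and the peaks near its listed starts differed in height. The other listed start with a promoter-class peak, of ENST00000399237, is called the inner start here. It lay 159508 bp downstream of the start under the strong peak. Near it was a peak on 36262885 to 36263451 with 13 tags, a fold enrichment of 5.71 and an FDR of 47.86%. Its summit was 1076 bp upstream of the inner start, and 55.4% of promoter-class peaks were as high or higher. The strong peak overlapped its start and this one did not.

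**Figure D2:**
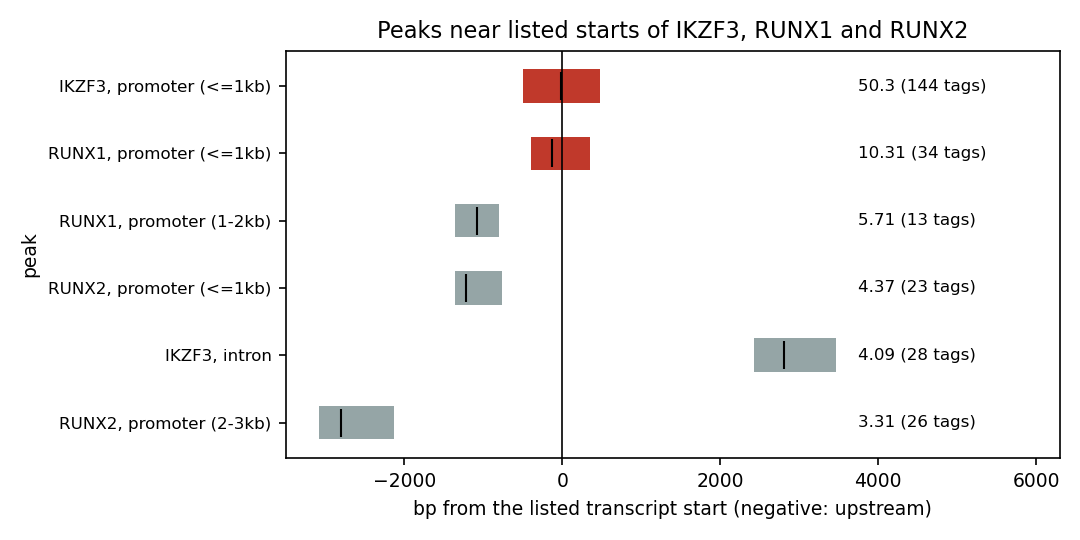
Extent of the promoter-class peaks of IKZF3, RUNX1 and RUNX2 and of the intronic IKZF3 peak, in bp from the listed transcript start in the direction of transcription, with black ticks at the summits, red for an FDR of at most 5% and fold enrichment and tags at the right. The red peaks of IKZF3 and RUNX1 overlap their starts, and both RUNX2 peaks lie upstream.

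The remaining peaks named RUNX1, inside its transcripts, were weak, with some spread in FDR. The listed RUNX1 transcripts span 677.5 kb. Most of these peaks, the highest included, lay upstream of the start under the strong peak, inside transcripts that start farther upstream. The 12 intronic peaks named RUNX1 held 9 to 26 tags and had fold enrichments of 4.85 to 7.80, with a median of 6.18. The highest, on 36696442 to 36697302, had 26 tags and an FDR of 5.48%, just over the 5% limit. The next, on 36730036 to 36730642, had 18 tags, 7.36 and an FDR of 29.9%. The other 10 had FDRs above 40%. The 1 exonic peak, in ENST00000494829, had 11 tags, 6.18 and an FDR of 39.6%. Ties are frequent here, since peaks of few tags take repeated values. A fold enrichment of 6.18 belonged to 4 of the 24 peaks and to 11.3% of the whole list.

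Many peaks inside RUNX1 transcripts carried other names. Each peak was named for its nearest transcript start, and RUNX1 transcripts enclose small genes and pseudogenes. Counting every peak that the annotation placed in RUNX1 introns or exons gave 34 peaks, of which 21 were named for other genes. With 1 more inside the listed span, 22 peaks of other names were counted. Their fold enrichments were 3.93 to 8.83 and their FDRs ran from 28.85% upward, so 0 of these 22 reached 5%. All 22 lay upstream of the start under the strong RUNX1 peak, so none was inside the transcript of 261498 bp that starts there. The strong peak named for EZH2P1, an EZH2 pseudogene (75.19 with 95 tags), lay 550.2 kb upstream of the strong RUNX1 peak's start. Peaks on either side of it, at 5.82 and 7.61, were annotated to introns of the RUNX1 transcript ENST00000475045. The strong EZH2P1 peak was of promoter class and lay beyond the listed span, so the 22 leave it out. They leave out any other such promoter-class peak too.

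**Figure D3:**
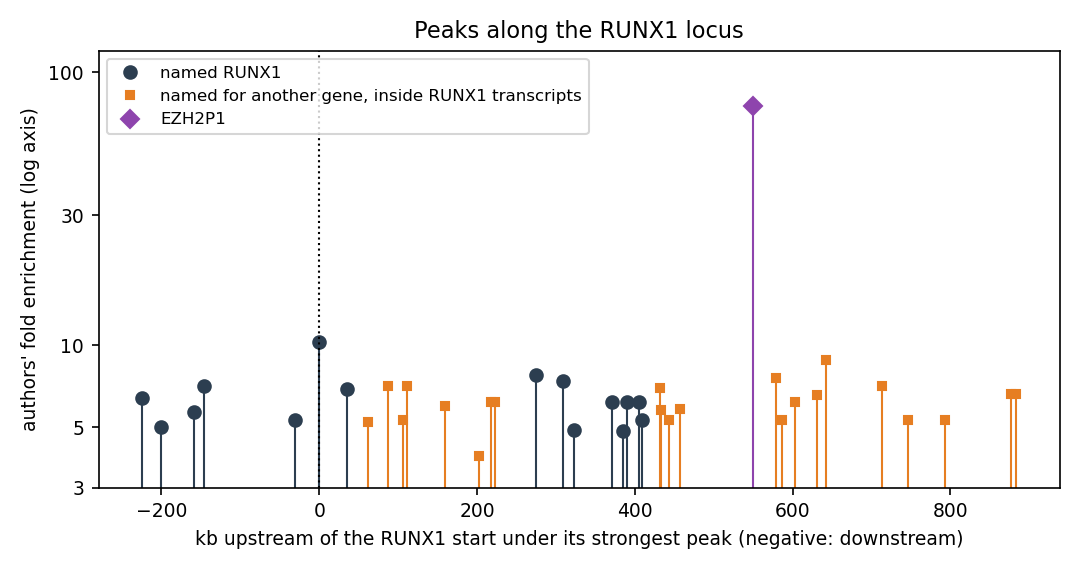
Fold enrichment (log axis) of peaks along the RUNX1 locus, by distance in kb from the start under its strongest peak, with circles for peaks named RUNX1, squares for peaks of other names inside RUNX1 transcripts and a diamond for EZH2P1. Promoter-class peaks of other names beyond the listed RUNX1 span are not shown, apart from the EZH2P1 peak at 75.19. Of the other peaks shown, the RUNX1 promoter peak at 10.31 is the highest, and the squares stay between 3.93 and 8.83.

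RUNX2, the master regulator of bone formation (ENSG00000124813), had 3 peaks that were rich in tags but low in fold enrichment. Its promoter-class peak on chromosome 6, 45326229 to 45327172, held 26 tags with a fold enrichment of 3.31 and an FDR of 45.48%. The other, on 45388411 to 45389010, held 23 tags with 4.37 and an FDR of 44.03%, and its summit was 1215 bp upstream of the start of ENST00000478660. An intronic peak held 21 tags with 4.92 and an FDR of 47%. Each RUNX2 peak had more tags than the median peak, and 99.8% of all peaks had a fold enrichment of at least 3.31. The RUNX1 intronic peak with 26 tags, as many as the weakest RUNX2 peak, had a fold enrichment of 7.80, so tag count and fold enrichment order these peaks differently. By height RUNX2 was number 4103 of the 4474 genes ranked. Inside its listed span 4 more peaks had other names, with 17 to 57 tags, fold enrichments of 4.04 to 5.68 and FDRs of 31.19% to 46.36%. The one with 57 tags was named for SUPT3H, the overlapping neighbour on the other strand, and the others for RP1-166H4.2 and RNU6-515P.

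CBFB, IKZF1 and IKZF2 had weak peaks away from their promoters. CBFB, the shared partner of the RUNX proteins (ENSG00000067955), had 1 peak in its 3′ untranslated region on chromosome 16, 67132622 to 67133120, with 12 tags, 6.14 and an FDR of 41.36%. IKZF1, which encodes Ikaros itself (ENSG00000185811), had an intronic peak with 12 tags and 5.29 (FDR 45.76%). Its other peak, in distal intergenic sequence with its summit 12963 bp upstream of the nearest listed start, had 10 tags and 5.09 (FDR 46.95%). IKZF2, the gene of Helios (ENSG00000030419), had 1 intronic peak with 12 tags and 6.18 (FDR 45.5%). In its listed span 2 peaks were named for AC079610.1, at 6.13 and 6.18 with FDRs of 48.93% and 39.11%. Their fold enrichments of 5.09 to 6.18 lie around the median of the whole list, and the counting intervals of 10 tags (4.80 to 18.39) and 12 tags (6.20 to 20.96) overlap.

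No peak was named for RUNX3, IKZF4, which encodes Eos, or IKZF5, which encodes Pegasus. Peaks in these genes that lay nearer to another transcript were not counted, because the search inside genes covered only the 6 genes with a named peak. Their RefSeq neighbours CLIC4 and SYF2 (RUNX3) and SUOX and RPS26 (IKZF4) had no peak either. Of the IKZF5 neighbours, PSTK had a peak over a TSS with 16 tags, 7.18 and an FDR of 38.11%, and ACADSB had no promoter peak. Any peak was named for 56.3% of 20033 protein-coding genes, against 6 of these 9. A promoter-class peak, within 3 kb of a TSS, was named for 33.1% of genes, against 3 of 9. At an FDR of at most 5% the shares of genes were 2.47% with a promoter peak and 3.01% with any peak, against 2 of 9 for each. Among promoter-class peaks 4.29% had such an FDR, against 2 of 5 here. These shares stand beside counts that entered the choice of the genes and show nothing about the families.

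Most of these peaks were intronic. Introns held 16 of the 24, 12 of them in RUNX1, where 37.2% of all peaks were intronic. Promoter-class peaks were 5 of the 24, where 20.5% of all peaks were. Distal intergenic sequence held 1 of the 24, against 36.6% of all. Membership by gene symbol enters these class counts, and they were not tested.

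**Figure D4:**
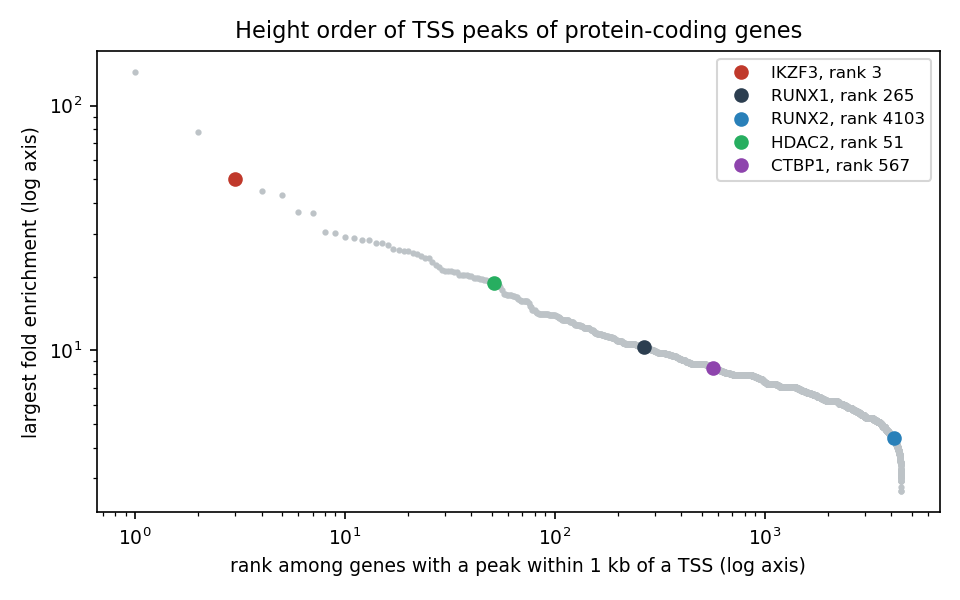
Largest fold enrichment of a peak up to 1 kb from a TSS for 4474 protein-coding genes against its rank (both log axes), with 5 genes coloured. IKZF3 is at rank 3, RUNX1 at 265 and RUNX2 at 4103, while HDAC2 and CTBP1 of the Ikaros partner list are at 51 and 567.

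Among genes of proteins that work with Ikaros, HDAC2 and CTBP1 had strong promoter peaks. HDAC2, a histone deacetylase of the NuRD complex, had a peak over a TSS on chromosome 6 (114291991 to 114293093) with 57 tags, 18.8 and an FDR of 0. CTBP1, a corepressor, had one on chromosome 4 (1243083 to 1244293) with 45 tags, 8.49 and an FDR of 0.27%. They were the only 2 of 18 Ikaros partner genes with a promoter peak at an FDR of at most 5%, where 2.47% of all protein-coding genes had one. At the authors' threshold 12 of the 18 (66.7%) had a promoter peak, against 33.1% of all protein-coding genes, a difference that was not tested. The median of their highest promoter peaks was 5.43, against 6.18 over the 6638 genes that had one. GATAD2A, another NuRD subunit gene, had 6.67 with an FDR of 37.81%. CRBN, the gene of cereblon, through which lenalidomide directs the breakdown of IKZF1 and IKZF3, had 5.09 with 14 tags and an FDR of 44.17%, and was named here after its value was seen. CRBN and other genes of the cereblon ubiquitin ligase, DDB1, CUL4A, CUL4B and RBX1, were counted in the 18. All but RBX1 were among the 12 with a promoter peak, so the 66.7% is not of Ikaros cofactors alone.

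The promoter peaks of RUNX cofactor genes were of high FDR. Of 18 genes 8 (44.4%) had a promoter peak, beside 33.1% of all protein-coding genes, with a median of 6.33. None of the 18 had a promoter peak at an FDR of at most 5%, which with 2.47% over all genes is no result about them. Among the highest were the Groucho-family gene TLE2 with 7.89 (10 tags, FDR 38.82%) and the methyltransferase gene KMT2A with 7.06 (14 tags, FDR 46.61%).

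Other blood lineage factors had promoter peaks about as often as genes in general. Of 38 transcription factor genes 12 (31.6%) had one, near the 33.1% of all protein-coding genes, with a median of 5.59. None had a promoter peak at an FDR of at most 5%, beside 2.47% of all genes. The 3 highest were TAL1, a regulator of blood stem cells, with 7.06 (FDR 38.4%), TBX21, the T helper cell factor T-bet, with 7.06 (FDR 44.19%), and the B cell factor EBF1 with 6.97 (FDR 38.87%). Of 18 target genes 5 (27.8%) had a promoter peak, also beside 33.1%, with a median of 5.80, and 0 at an FDR of at most 5%. CSF1R, the macrophage growth factor receptor, had 6.67 (FDR 36.97%), DNTT, the polymerase that adds bases to antigen receptor joints, had 6.18 (FDR 46.34%), and the cytokine gene CSF2 had 5.80 (FDR 48.26%). The highest of these promoter values, 7.06, stands beside 10.31 for RUNX1 and 50.3 for IKZF3.

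**Figure D5:**
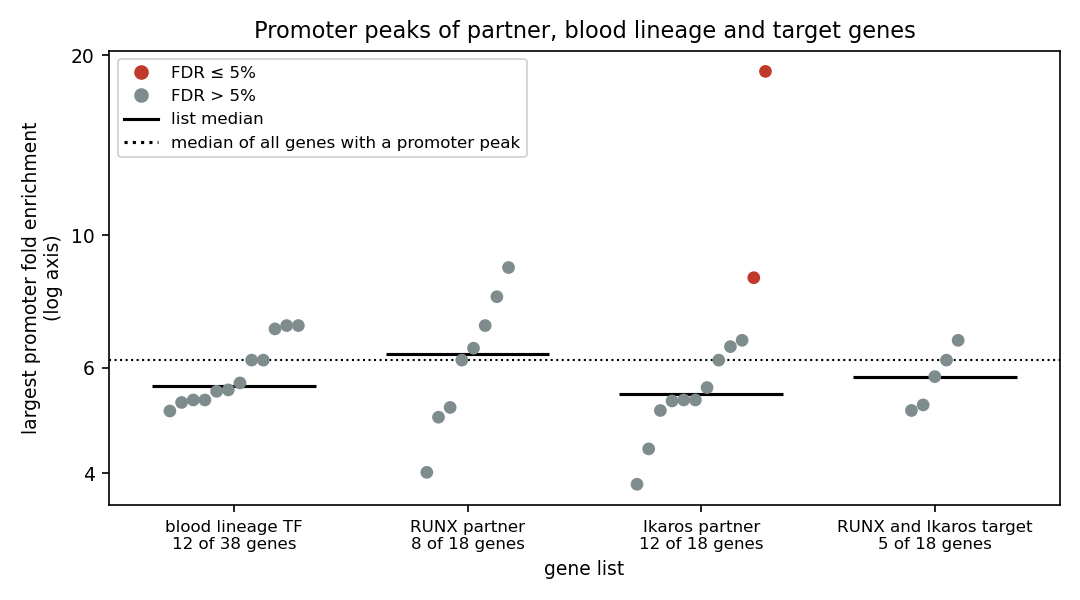
Largest promoter fold enrichment (log axis) of each gene with a promoter peak in 4 lists, red for an FDR of at most 5%, with the list median as a line and the median of all genes with a promoter peak dotted at 6.18. HDAC2 at 18.8 and CTBP1 at 8.49 are the only red points.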

How the data were processed

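ChIP-seq of MDA-MB-231 cells gave the authors' peak list for 1 JARID2 library, with no value of the input library used here. The submitters' processing notes name hg19 and the tools ChIPseeker, MACS, MACS2, Bowtie 0.12.8 and bcl2fastq, with caller settings, duplicate handling and the role of the input not given in the sources used here. Per the file headers, the authors gave each peak a raw tag count, a fold enrichment as a ratio over the caller's background, and an FDR in percent. A deposited score with an unreadable header was read as −log10 p times 10, since it stands where that caller puts it and starts at 30. Library depth is unknown, since only peaks are listed, so precision is given as exact Poisson intervals of tag counts.

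Peaks were matched to genes by the deposited symbol and to protein-coding genes of the RefSeq table by symbol or a synonym of 1 gene (Python 3.11.15, pandas 2.3.3, scipy 1.17.1). Summits were placed at the peak start plus the deposited offset, less 1 base. The 9 genes and the 4 lists (38 blood lineage factors, 18 RUNX partners, 18 Ikaros partners and 18 targets) were chosen with earlier results of these data known. Every peak of the 9 genes is described. In each list the genes named have a promoter peak at an FDR of at most 5%, or are the 3 highest where fewer than 3 do. Genes 2 places above and below IKZF3 and RUNX1 in height are also named. A gene that the rule picks is not reported here. No test was run, with 1 library a group. Motif and counting steps were tested on simulated data.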

Additional observations from a re-analysis of the deposited data

How the results depend on the processing

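The highest promoter peaks of IKZF3, RUNX1 and RUNX2 were all classed within 1 kb of a TSS. Narrowing the reach from 3 kb to 1 kb could therefore not change their height. The genes with a peak at an FDR of at most 5% numbered 2 also at limits of 1%, 10% and 20%. These were IKZF3 and RUNX1, so the count repeats the choice of the set. Shares of all genes at those other limits are not given here. Of 37 recomputed values 15 stayed within 1.5 times the reported one, with these unchanged values included. Stricter limits left 2 (FDR of at most 5%), 4 (−log10 p of at least 5) and 6 (top 25% by fold enrichment) of the 24 member peaks, fewer by construction, and counting by listed spans gave 37. Of all peaks 1.24% had such an FDR, and the share at the −log10 p limit is not given here. The top 25% limit keeps about 25% of all peaks by definition, so 6 of 24 is no result about the members. Members with any peak numbered 6, against 3 with a promoter peak. For blood lineage factors the 12 genes became 0, 0 and 3 under those limits in the same order, 7 within 1 kb and 26 with any peak. RUNX partners went from 8 to 0, 2 and 3, to 5 within 1 kb and 12 with any peak. Ikaros partners went from 12 to 2, 5 and 2, to 9 within 1 kb and 14 with any peak. Targets went from 5 to 0, 0 and 0, to 2 within 1 kb and 10 with any peak. Over all protein-coding genes the same limits left 2.47%, 9.89% and 11.2% with a promoter peak. Within 1 kb 22.3% of all protein-coding genes had a promoter peak, and 56.3% had any peak. Depth limits the comparison of weak peaks: 16 of the 24 held 9 to 13 tags, and the counting intervals of 9 (4.12 to 17.08) and 13 tags (6.92 to 22.23) overlap. No paired analysis was possible because each group had 1 library.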

Other observations

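A strong peak lay upstream of IKZF2 without carrying its name. It was on chromosome 2, hg19 214037049 to 214037664, 24.0 kb upstream of the listed IKZF2 start, and was named for RP11-105N14.3. It held 22 tags, with a fold enrichment of 13.25 and an FDR of 4.53%, and 15 of 24568 distal intergenic peaks, this one included, were as high or higher. Within 50 kb of the listed starts of the 6 genes with a peak, it was the only peak of another name at an FDR of at most 5%. Whether it belongs to IKZF2 was not tested.

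Of 38 blood lineage factor genes, 3 had a peak at an FDR of at most 5%, beside 3.01% of all protein-coding genes. The difference was not tested, and these peaks, all outside promoters, are named here after their values were seen. MECOM, a stem cell transcription factor gene, had 2 distal intergenic peaks, with 51 tags and 9.84 (FDR 1.12%) and 43 tags and 7.95 (FDR 3.99%), lying 5461 and 3366 bp from a TSS. IRF4, a plasma cell factor gene, had 37 tags and 7.06 (FDR 1.09%) at 3181 bp, just past the 3 kb promoter limit. Its highest peak, with 10.61 and 22 tags, lay 60340 bp from a TSS at an FDR of 9.03%. TBX21 had 40 tags and 8.27 (FDR 2.15%) at 11638 bp. Among all distal intergenic peaks, 0.529% reached 9.84, 8.89% reached 7.95, 23.3% reached 7.06 and 4% reached 8.27. The 4 peaks at an FDR of at most 5% each had more tags than the RUNX1 promoter peak but a lower fold enrichment.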
